A study of Rattus norvegicus with 10 samples.

Results

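The expression profile of the control heart was described here from the 5 arrays labelled LacZ 1 to LacZ 5, which hold RNA of rat left ventricle taken 3 days after transfer of the LacZ gene. All probe sets other than the array's own controls that carry a single gene symbol were used, which were 20826 of 31042 (67.1%) and stood for 14217 genes. The study, with 10 arrays in all, set these controls against ventricles that had received MKK3bE and wild-type p38α, and those other arrays are not described here. Labels of 4 of the control samples give male Sprague-Dawley rats of 250 to 300 g, and the label of LacZ 1 gives only the weight. LacZ, the bacterial beta-galactosidase, is a reporter commonly used as a gene transfer control, and the labels name neither the vector nor an untouched heart. These values are therefore those of an injected ventricle on day 3. The labels speak of treated animals but do not say in words that each array is a separate animal, so the spread given below is the spread between these 5 samples and may be partly technical.

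The left ventricle is made up, by volume, mostly of cardiomyocytes, with fibroblasts, endothelial cells, smooth muscle cells and resident leukocytes between them. Cardiomyocytes shorten when calcium released from the sarcoplasmic reticulum binds troponin on the thin filament and lets myosin heads of the thick filament pull on actin. The fuel for this work is chiefly fatty acid, burned in mitochondria that fill much of the cell.

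Signals are the deposited intensities of the array software. They were normalized over the 5 arrays by quantiles and given as log2 of the signal plus 16. A gene with several probe sets is represented by the brightest of them, and genes were ranked from 1, the brightest, to 14217. Since probe sets bind with different strength, a rank is a position in brightness and not a count of transcripts. Where a gene above the brightness limit had several probe sets (3958 genes), its brightest and dimmest differed by a median of 2.05 on the log2 scale, or 4.14-fold. This median serves below as a measure of how far probe sets of 1 gene commonly lie apart. The brightness limit was set at the level that leaves out the dimmest 40% of all probe sets, a log2 signal of 5.77. By that limit, 10552 genes (74.2%) had a mean above it, 9944 were above it on all 5 arrays, 2797 were below it on all 5, and 1476 crossed it.

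The arrays ordered the genes alike. The rank correlation between pairs of arrays over the 10552 genes lay between 0.983 and 0.988, and 87 genes were among the 100 brightest of every array, of 115 that were there on at least 1. LacZ 5 stood apart from the others: its correlations with them reached at most 0.984, while the lowest among LacZ 1 to LacZ 4 was 0.985. In its scanner file the fluidics run is recorded as "Started", where the other 4 read "Completed". It shared fluidics module 1 with LacZ 1. The 3′ to 5′ ratio of its Gapdh control probe sets lay inside the range of the other arrays (1.24 to 1.68). LacZ 4 had the highest Gapdh ratio and also the highest actin ratio, 2.55 against 1.90 to 2.26 on the others. Whether the fluidics record has a part in the values of LacZ 5 was not tested. The spread of most gene lists that rest on LacZ 5 is therefore given with and without it.

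The brightest genes were those of contraction, calcium cycling and mitochondrial energy supply. Of the 30 brightest, 28 fell in the gene lists used here: 4 in the thick filament, 4 in the thin filament, 2 in the Z-disc, 2 in calcium cycling, 7 in the respiratory complexes, 4 in energy transfer and oxygen binding, 2 in glucose use, and 1 each in the tricarboxylic acid cycle, fatty acid use and ribosomal proteins. The other two were COX2 and COX1, subunits of cytochrome c oxidase that the mitochondrial genome encodes. COX2 was first, with deposited signals of 15325, 16473, 14780, 15865 and 14638 on LacZ 1 to LacZ 5. Atp2a2, the calcium pump that refills the sarcoplasmic reticulum, was second, with 15101, 15275, 15211, 15572 and 14805. Both held one of the first 3 places on every array. Idh2, the mitochondrial NADP-dependent isocitrate dehydrogenase, ranked 3, with a deposited signal of 14624 ± 672 (SD, n = 5).

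The ranks that followed belonged to Tnnt2, cardiac troponin T (14591 ± 449), to Pln, the phosphoprotein that restrains the calcium pump (14115 ± 653), to Atp5f1c, the gamma subunit of ATP synthase (14054 ± 400), and to Ldhb, the heart form of lactate dehydrogenase (14045 ± 328). All these are means ± SD of deposited signals over the 5 arrays. From COX2 to Cox4i1, a further oxidase subunit at rank 30, mean deposited signals fell only from 15416 to 11642, and the brightest probe set of any kind on each array read between 17609 and 18594. Neighbours in this order could seldom be told apart: among the 29 neighbouring pairs of the 30 brightest genes, the 5 normalized values overlapped in all but 1 pair, Atp2a2 and Idh2. Quantile normalization assigns the brightest ranks nearly the same values on each array, so small spreads at the top of the order partly follow from the method. The deposited signals, which carry differences of whole arrays, are for that reason the values given here.

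**Figure D1:**
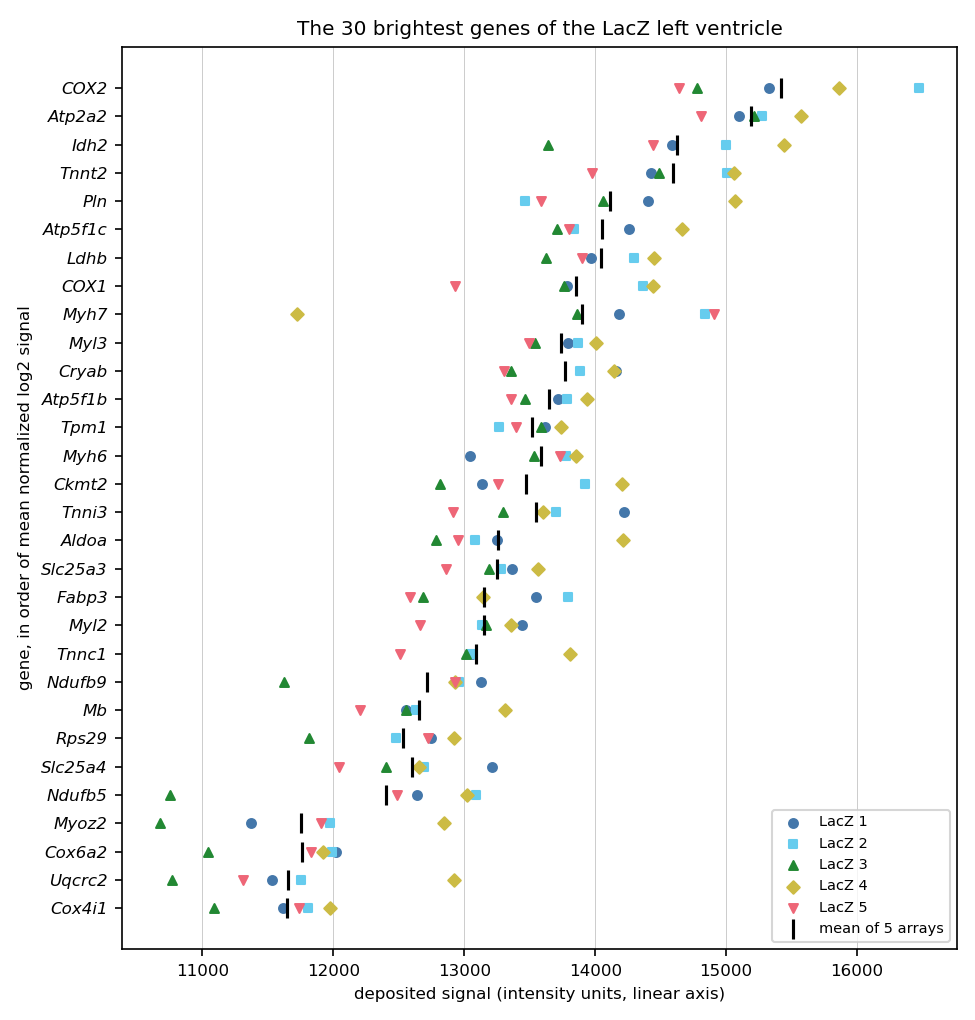
Deposited signal (intensity units, linear axis that does not start at 0) of the 30 brightest genes on each of the 5 LacZ arrays, with the mean as a black bar, in order of the mean normalized log2 signal. The points of neighbouring genes overlap throughout, and Myh7 on LacZ 4 (11719) lies apart from its values on the other arrays (13858 to 14908).

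Sarcomere genes filled the top of the order almost without exception. All 8 measured genes of the thick filament and all 7 of the thin filament were in the brightest 10%, with median percentiles of 99.6 and 99.9 (100 is the brightest gene, and 50.0 is the median of all genes). Myh7 and Myh6, the slow beta and fast alpha heavy chains of cardiac myosin, ranked 9 and 14. Their deposited signals were 14184, 14842, 13858, 11719 and 14908 for Myh7 and 13046, 13773, 13534, 13853 and 13728 for Myh6. Myh7 was low on LacZ 4 alone, and outside that array the signals of both chains lay within one range of 13046 to 14908. Of the Z-disc and titin genes, 15 of 17 measured were in the brightest 10%. They included Cryab, the small heat shock protein that protects desmin and titin (rank 11), Myoz2, a calcineurin-binding Z-disc protein (rank 27), Ttn, the giant spring of the sarcomere (rank 41), and Ankrd1, its stress-responsive partner (rank 55). Myot ranked only 8343, and Ankrd2 was below the brightness limit. The cardiac actin Actc1 is not ranked, since its probe sets carry several symbols.

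Among sarcomere genes above the limit, Acta1, the skeletal form of actin that the heart expresses in development and under load, varied most. Its normalized log2 signals were 12.97, 13.49, 13.60, 13.45 and 13.49, and the value of LacZ 1 lay below the other 4 (13.45 to 13.60). For comparison, Myl3, the essential light chain of the ventricle, had an SD of 0.0050, and Atp5f1b, the beta subunit of ATP synthase, ranked 12 or 13 on every array.

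The member counted as the heart or muscle form was far brighter than its relative in many gene families. The relative was often an atrial or skeletal muscle form. Of 20 families with both forms measured, the heart or muscle form was the brighter by more than 2.05, the median gap between probe sets of a gene, in 11. In the other 9 the gap was smaller than that. As 2.05 is a median, many genes have probe sets further apart, so a wider gap does not by itself order transcripts. Ventricular light chain Myl2 ranked 20, and its atrial counterpart Myl7 ranked 9712. Myl3 ranked 10 and the atrial Myl4 8084. Cardiac troponins Tnni3, Tnnt2 and Tnnc1 ranked 16, 4 and 21, while the slow skeletal troponin Tnni1 ranked 9404 and the fast skeletal Tnnt3 and Tnnc2 lay below the limit. Atp2a2 (rank 2) and its regulator Pln (rank 5) were accompanied by Atp2a1, the fast skeletal pump, below the limit, and by sarcolipin, Sln, at rank 9770. The gap was above 6 on the log2 scale in each of these 7 pairs.

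The other 4 pairs with a gap wider than 2.05 were calsequestrin, where Casq2 ranked 98 and the skeletal Casq1 2252, and 3 of metabolism. The muscle carnitine palmitoyltransferase Cpt1b, which admits long-chain fatty acids to the mitochondrion, ranked 161 and the liver form Cpt1a 1576. The insulin-sensitive glucose transporter Slc2a4 ranked 332 and the general transporter Slc2a1 4363. The muscle creatine kinase Ckm ranked 48 and the brain form Ckb 2074. As probe sets of a gene can lie further apart than 2.05, these 4 gaps do not settle an order of transcripts. The 9 pairs with smaller gaps are not ordered by these data either. They included Cox6a2 and Cox6a1, the muscle and liver forms of an oxidase subunit (ranks 28 and 217), Cox8b and Cox8a (ranks 83 and 124), Ldhb and Ldha (ranks 7 and 92) and the natriuretic peptides. In 3 of them, myosin heavy chain, enolase and elongation factor 1A, the form taken as the relative had the higher mean. These were Myh7, itself a cardiac chain, against Myh6, Eno1 (rank 263) against Eno3 (rank 345) and Eef1a1 (rank 129) against Eef1a2 (rank 468).

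Genes of oxidative metabolism were bright with few exceptions. All 73 measured subunits of respiratory complexes I to V were above the brightness limit and 69 were in the brightest 10%, with median percentiles of 98.8, 99.4, 99.5, 99.5 and 99.5 for complexes I, II, III, IV and V. Their levels on the 5 arrays were close. The median SD was 0.081 for complex I and 0.044 for complex V, against 0.14 for all genes above the limit, and the median for the brightest of 20 bins of those genes was 0.075. The exceptions in level were few. Cox5a, a nuclear-encoded subunit, ranked 5251 and Cox4i2, the form of subunit 4 known from lung and from low oxygen, ranked 7279. All 15 tricarboxylic acid cycle genes were in the brightest 10%, as were 27 of 31 genes of fatty acid use and 19 of 23 of glucose use.

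Within fatty acid use, Fabp3, the cytosolic carrier of fatty acids, ranked 19, Acadl, the long-chain acyl-CoA dehydrogenase, 33, Lpl, the lipase that frees fatty acids from lipoproteins, 35, and Hadhb, a subunit of the mitochondrial trifunctional protein, 38. The genes of this list that differed most between arrays were dim. Acacb, which makes the malonyl-CoA that inhibits Cpt1b, had normalized log2 signals of 7.85, 7.38, 8.12, 6.68 and 7.49. Its highest value was on LacZ 3 and its lowest on LacZ 4, a range of 2.71-fold. Ucp3, a mitochondrial carrier of muscle, read 8.46, 8.34, 7.91, 8.06 and 7.21 and was lowest on LacZ 5. Of 14 genes of oxygen binding and energy transfer, 9 were in the brightest 10%, among them Mb, myoglobin (rank 23), Ckmt2, the mitochondrial creatine kinase (rank 15), and Slc25a4, the adenine nucleotide carrier of muscle (rank 25). The transcriptional regulators of the list were dimmer: Ppargc1a, Esrra and Tfam ranked 1996, 2063 and 2233, and Ppara was below the limit. Among members above the limit Ckb was the least even, with an SD of 0.28.

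Ribosomal protein genes were bright as well, with a median percentile of 98.6. Of 71 on the list only 36 had a probe set with a single symbol. Of these, 32 were in the brightest 10%, led by Rps29 at rank 24, and Rps13, Rpl28 and Rpl30 were below the limit. Of the 33 above it, 21 were highest on LacZ 5 (22.9% over all genes above the limit). The mean deviation of all 33 from their own means was 0.09 on the log2 scale on that array. Their median SD was 0.081 with LacZ 5 and 0.068 without it. Genes often used as references were about as even as other genes of their brightness, with a median ratio of 0.97 between their SD and that of their brightness bin. The 13 measured had a median SD of 0.10, or 0.06 without LacZ 5, and ranged from B2m at rank 47 to Tbp at rank 7127. Tfrc, the transferrin receptor, and Gusb, the lysosomal beta-glucuronidase, were the least even. Tfrc read 11.65, 11.22, 11.58 and 11.59 on LacZ 1 to LacZ 4 and 10.53 on LacZ 5, 1.97-fold below the mean of the others. Gusb read 7.70 to 7.90 on LacZ 1 to LacZ 4 and 8.36 on LacZ 5. Gapdh and Actb are absent from the ranking because their probe sets carry several symbols.

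**Figure D2:**
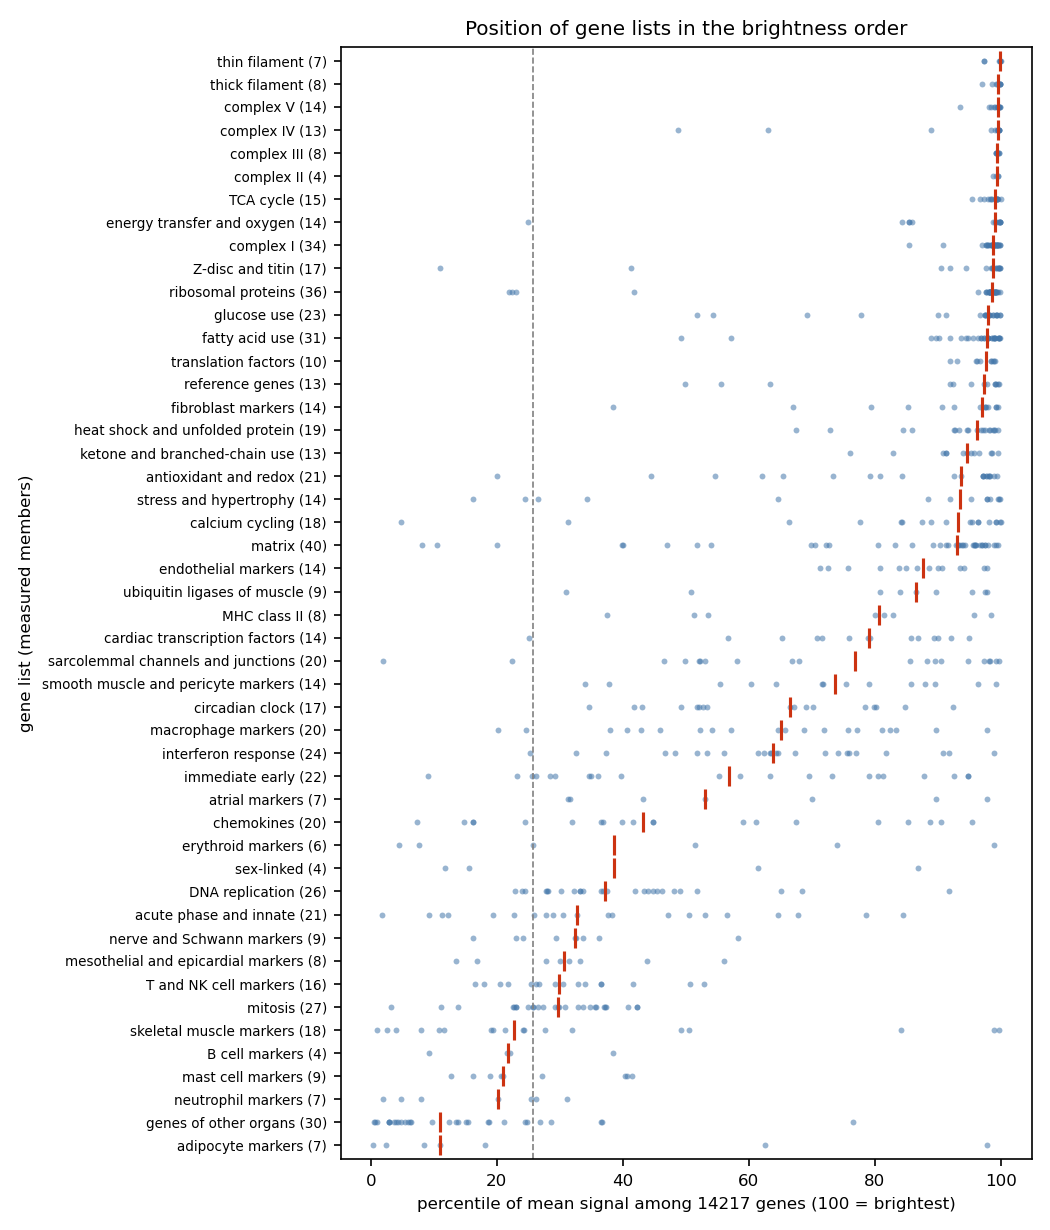
Percentile of mean signal (100 is the brightest of 14217 genes) of each measured gene (points) in 48 lists, with the median of each list as a red bar; numbers in brackets give measured genes, and the dashed line marks the brightness limit. Sarcomere, respiratory and tricarboxylic acid cycle lists have medians above 95, while lists of mitosis, lymphocytes and other organs have medians below 40.

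Calcium cycling genes had 17 of 18 members above the limit. Beside Atp2a2 and Pln, the calcium store protein Casq2 ranked 98 and Ryr2, the release channel, 103. S100a1, a calcium sensor that binds both the pump and the channel, was the most variable of them above the limit, at 9.24, 9.58, 8.76, 9.38 and 9.42, lowest on LacZ 3. Among 20 genes of sarcolemmal channels and junctions, Gja1, the gap junction protein connexin 43, ranked 39, Dsp, desmoplakin of the desmosome, 117, and Kcnip2, the partner of the transient outward potassium channel, 274. The pacemaker channel Hcn2 was far dimmer and read 8.47, 7.99, 8.43, 7.50 and 7.92, highest on LacZ 1 and LacZ 3 and lowest on LacZ 4.

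Protein quality control and redox defence were well represented. Of 19 heat shock and unfolded protein genes all were above the limit and 15 were in the brightest 10%, with the small heat shock proteins Hspb6 and Hspb7 at ranks 64 and 130 and the mitochondrial chaperonin Hspd1 at rank 185. The stress-inducible Hspa1a ranked 4615 and read 8.48, 8.51, 9.02, 8.64 and 8.43. Of 21 antioxidant genes 20 were above the limit, led by the glutathione peroxidase Gpx1 at rank 86 and the superoxide dismutase Sod1 at rank 146. Mt2A, a metal-binding metallothionein, varied more than these, at 9.13, 9.74, 8.78, 9.69 and 10.27, highest on LacZ 5 and lowest on LacZ 3. Of the 9 measured genes of muscle ubiquitin ligases, Klhl31 ranked 308 and Asb2 355, and the atrophy ligase Fbxo32 only 9807. Foxo1, a transcription factor known to drive Fbxo32, read 7.92 and 8.02 on LacZ 1 and LacZ 3 and 7.32 to 7.41 on the others, and Fbxo32 read 6.55 on LacZ 1 and 5.76 to 6.22 on the others, so that only LacZ 1 was high for both.

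Secreted natriuretic peptides, hormones that the stretched heart releases, were bright. Nppb, the B-type peptide, and Nppa, the A-type peptide, ranked 304 and 306. Nppb read 11.95, 12.12, 12.38, 12.41 and 12.05 on LacZ 1 to LacZ 5. Nppa read 11.57, 12.40, 13.01, 11.80 and 12.11, a range of 2.72-fold and an SD of 0.56, where genes of this brightness had a median SD of 0.075. The highest value was that of LacZ 3 and the lowest that of LacZ 1. Of the 7 measured atrial markers, Nppa alone was highest on LacZ 3. Myl4, Myl7 and Sln ranked 8084, 9712 and 9770. Myl7 and Sln read 5.79 and 5.85 on LacZ 3, close to the limit of 5.77, so their order of arrays says little. The brighter Dkk3 read 10.31 to 10.46 on the 5 arrays.

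Transcription factors of the heart had a median percentile of 79.1. Of 14 measured, 3 were in the brightest 10%: Mef2a (rank 716), Hopx (rank 1133) and Gata4 (rank 1418). Nkx2-5 ranked 1497. Immediate early genes, which respond within minutes to stimuli, were spread over the whole order: 19 of 22 were above the limit, with Jund at rank 729 and Dusp1 at rank 733, Fos at rank 8572 and Fosb below the limit. Fos read 6.84, 6.65, 6.58 and 6.63 on LacZ 1 to LacZ 4 and 7.55 on LacZ 5. The median SD of the 19 immediate early genes was 0.18 with LacZ 5 and 0.14 without it.

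All 17 clock genes were above the limit, and their median SD of 0.23 was 1.67 times that of genes of equal brightness (median of the ratios). Dbp, an output of the clock, read 9.44, 9.85, 9.80, 10.17 and 10.04, and Bmal1, the activator of the core loop, read 7.50 on LacZ 1 and between 6.78 and 7.32 on the others. LacZ 1 was the lowest array for Dbp and the highest for Bmal1. Cry2, a repressor of the loop, was also lowest on LacZ 1, at 8.03, against 8.54 to 8.88 on the others. The labels give no hour of sampling.

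Genes of the cells between the cardiomyocytes were also measured. In RNA from whole ventricle, fewer cells of a type and less RNA per cell cannot be told apart. Matrix genes were bright: 24 of 40 were in the brightest 10%, led by Col3a1, a chain of fibrillar collagen (rank 56), Dcn, the proteoglycan decorin (rank 111), and Sparc, a collagen-binding matricellular protein (rank 152). All 14 endothelial and all 14 smooth muscle and pericyte markers were above the limit, with median percentiles of 87.7 and 73.6. The macrophage markers had 18 of 20 above it, and only Lyz2, lysozyme, in the brightest 10%. Markers of T and NK cells, B cells and neutrophils were dim, with median percentiles of 29.8, 21.8 and 20.2. Above the limit were 11 of 16 T and NK cell markers, 1 of 4 B cell markers and 2 of 7 neutrophil markers. The share over all genes was 74.2%. The brightest T and NK cell marker was at percentile 52.9. Of the adipocyte markers, Adipoq and Plin1 were below the limit. Fabp4 (rank 309) and Cfd (rank 5318) were above it, and Fabp4 is also made by capillary endothelium.

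Genes of other organs served as a check on the floor. Of 30, 25 were below the limit, among them Alb of liver, Prm1 of testis and Umod of kidney. Ttr, the carrier of thyroxine, ranked 3337, with 9.09, 9.32, 9.17, 9.09 and 9.27 on the 5 arrays. The other 4 above the limit were dim: Ins1 of the pancreas had a mean of 6.63, as had Syp of nerve endings, Tg of the thyroid lay between 5.79 and 6.26, and Slc34a1 of the kidney had a mean of 5.85. A log2 signal of about 6 to 7 therefore does not by itself show that a gene is expressed, and many mitosis and immune genes described below lie in that range. Ttr lay above that range, and whether its signal comes from its own transcript was not tested. Of 18 skeletal muscle markers, 11 were below the limit, including Myh4 and Actn3, and the brightest member, Ckm, is shared with the heart. Myh1 ranked 143, and whether its probe set also binds the cardiac heavy chains was not tested. The Y-linked genes Eif2s3y and Uty were above the limit on all 5 arrays, at 10.07, 10.23, 9.71, 10.05 and 10.09 and at 8.10, 8.08, 8.34, 8.34 and 8.37. Xist was below the limit on all 5, and so LacZ 1, whose label gives no sex, read like the 4 arrays labelled male.

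Most genes differed little between the 5 arrays. The median SD over the 10552 genes above the limit was 0.14 on the log2 scale, with 5th and 95th percentiles of 0.053 and 0.36, and the median ratio of highest to lowest array was 1.27-fold. A ratio under 1.2-fold was found for 3298 genes (31.3%). A ratio over 2-fold was found for 355 genes (3.36%), and over 4-fold for 21. Without LacZ 5, normalized anew, 182 genes spanned over 2-fold. The spread depended on brightness: the median SD was 0.26 in the dimmest of 20 bins of equal size and 0.075 in the brightest. In 148 of the 355 genes at least 1 array was below the limit.

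**Figure D3:**
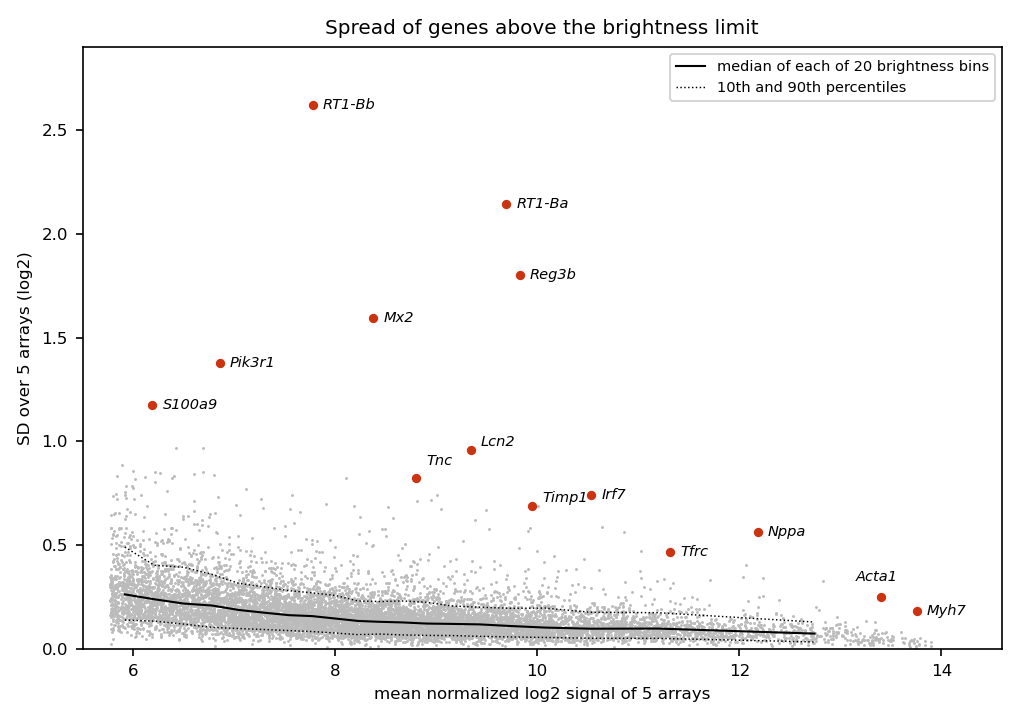
SD over the 5 LacZ arrays (log2) against mean normalized log2 signal for the 10552 genes above the brightness limit (grey points), with the median (solid line) and the 10th and 90th percentiles (dotted lines) of 20 brightness bins. The median falls from 0.26 to 0.075, and named genes such as RT1-Bb (SD 2.62), RT1-Ba (2.14), Reg3b (1.80) and Mx2 (1.59) lie far above it.

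The steadiest bright genes were mostly of the same groups as the brightest. The 15 smallest SDs in the brightest 10%, all at or under 0.019, included Atp5f1b, Myl3, Cryab, Ldhb and Slc25a3, the mitochondrial phosphate carrier. Away from the extreme top of the order they included Hmgn3, a nucleosome-binding protein at rank 1095 (10.78, 10.76, 10.76, 10.76 and 10.75), Kansl2, a subunit of a histone acetyltransferase complex at rank 1338 (10.47, 10.51, 10.49, 10.50 and 10.51), and Sspn, sarcospan of the dystrophin complex at rank 406 (11.90, 11.89, 11.92, 11.88 and 11.88).

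Of the 25 genes with the largest SD, 18 had an array below the limit, where a small change in signal is a large one on the log2 scale. The 7 that stayed above it on all 5 arrays were RT1-Ba, Reg3b, Lcn2, Reg3g, Tnc, Npy and Tdrd1. Npy, the neuropeptide of sympathetic nerves, read 9.32 on LacZ 1, 7.30 and 7.37 on LacZ 2 and LacZ 3, and 8.30 and 8.28 on LacZ 4 and LacZ 5. Tdrd1, known from the germ line, read 7.91 on LacZ 3 and 7.47 on LacZ 1, against 6.35 and 6.27 on LacZ 2 and LacZ 4, and was lowest on LacZ 5. Pik3r1, the regulatory subunit of phosphoinositide 3-kinase, read 8.96 on LacZ 5 and 7.56 on LacZ 3, and 5.77 to 6.04 on the others.

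LacZ 5 was the highest array for 142 of the 355 wide-ranging genes, where each other array was highest for 48 to 58. Over all genes above the limit LacZ 5 was the highest array for 22.9% and the lowest for 20.2%, and LacZ 3 was the highest for 18.1%. Among lists with at least 3 genes above the limit, those of the acute phase, mitosis, red cells and macrophages deviated most on LacZ 5. Acute phase and innate genes above the limit (15 of 21) deviated from their own means by an average of 0.66 on LacZ 5 and of -0.21, -0.21, -0.19 and -0.05 on LacZ 1 to LacZ 4. Of the 15, 10 were highest on LacZ 5. Reg3b, Lcn2 and Reg3g, the widest members, made up much of the average there. The median SD of the 15 was 0.35, and 0.23 without LacZ 5. Reg3b, a secreted lectin of the Reg family, read 8.39, 8.68, 9.39, 9.77 and 12.90, and LacZ 5 was 14.3-fold above the mean of the others. Lcn2, lipocalin 2, an iron-sequestering protein, read 8.99, 8.87, 8.92 and 8.89 on LacZ 1 to LacZ 4 and 11.06 on LacZ 5, a 4.41-fold difference. Without LacZ 5 its SD was 0.053. Reg3g read 6.12 to 6.57 on the first 4 arrays and 8.18 on LacZ 5.

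The mitosis genes were dim. None of 27 was in the brightest 10%, 17 were above the limit, and 16 of these were highest on LacZ 5 (the exception was Nusap1). The share over all genes above the limit was 22.9%. The mean deviation of the 17 on LacZ 5 was 0.61. The median SD was 0.41 with LacZ 5 and 0.16 without it. Cdk1, the kinase that drives entry into mitosis, read 6.31, 6.42, 6.61, 6.27 and 7.64. Top2a, the topoisomerase of dividing cells, read 6.39, 6.16, 6.06, 6.04 and 7.26. In both genes LacZ 5 was above all other arrays, which lay near the brightness limit. Of 23 DNA replication genes above the limit 17 were highest on LacZ 5, with Pcna at 10.86 against 10.44 to 10.75. The mean deviation of all 23 there was 0.24, and their median SD was 0.25 with LacZ 5 and 0.145 without it.

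Macrophage markers were highest on LacZ 5 in 17 of 18 genes above the limit, with Cd163 the exception (22.9% over all genes above the limit). Their median SD was 0.25 with LacZ 5 and 0.18 without it. The summed signal of all 20 was 15911 on LacZ 5 and 11025 to 11920 on the others, and Cd86 and Itgam were below the limit. Fcgr3a, a receptor for immunoglobulin G, read 6.94, 6.99, 7.27, 6.76 and 8.46. Cd68, a lysosomal protein of macrophages, read 8.46, 8.57, 8.87, 8.11 and 9.45. Of 6 erythroid markers 3 were above the limit, with a median SD of 0.33 and of 0.13 without LacZ 5. Hbb, a haemoglobin chain, read 12.63, 12.52, 12.74, 12.90 and 13.36, and Alas2, which starts haem synthesis in red cell precursors, read 8.84, 8.61, 8.90, 8.87 and 9.87, both highest on LacZ 5. Slc4a1, the anion exchanger of the red cell membrane, was not, at 7.66, 7.62, 7.74, 7.50 and 7.70. The summed signal of the 6 markers was 11723 on LacZ 5 and 6469 to 8258 on the others, and Hbb made up 89.5% to 92.2% of it. The mesothelial and epicardial markers summed to 800.0 on LacZ 5 and to 540.0 to 621.0 on the others. Of the 6 above the limit, 5 were highest on LacZ 5, but Wt1 was lowest there, at 7.76 against 7.82 to 8.11. The median SD of the 6 was 0.36 with LacZ 5 and 0.20 without it. The part of these other cells in the results of LacZ 5 was not tested.

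Matrix genes were highest on LacZ 5 or LacZ 3 in most cases. Of 37 matrix genes above the limit 19 were highest on LacZ 5 and 15 on LacZ 3. Over all genes above the limit these shares were 22.9% and 18.1%. The median SD of the 37 was 0.21 with LacZ 5 and 0.17 without it. Timp1, an inhibitor of matrix metalloproteinases, read 9.65, 9.69, 9.67, 9.57 and 11.18, and LacZ 5 was 2.89-fold above the mean of the others. Tnc, tenascin C, a matrix protein of healing tissue, read 8.66, 8.35, 8.77, 8.06 and 10.20. Col1a1, a chain of type I collagen, read 12.28, 11.94, 12.31, 11.91 and 12.75. The first 2 were clearly apart on LacZ 5, and Col1a1 was not separated from LacZ 1 and LacZ 3 to the same degree. Outside these lists, Hmox1, haem oxygenase, read 7.96 to 8.41 on LacZ 1 to LacZ 4 and 9.47 on LacZ 5, and Ccn2, a growth factor-responsive matricellular protein, read 10.10, 9.88, 10.11, 10.10 and 10.85. Genes of energy metabolism leaned the other way by little: complex I genes deviated by a mean of -0.07 on LacZ 5, and 17 of 34 were lowest there (20.2% over all genes above the limit).

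**Figure D4:**
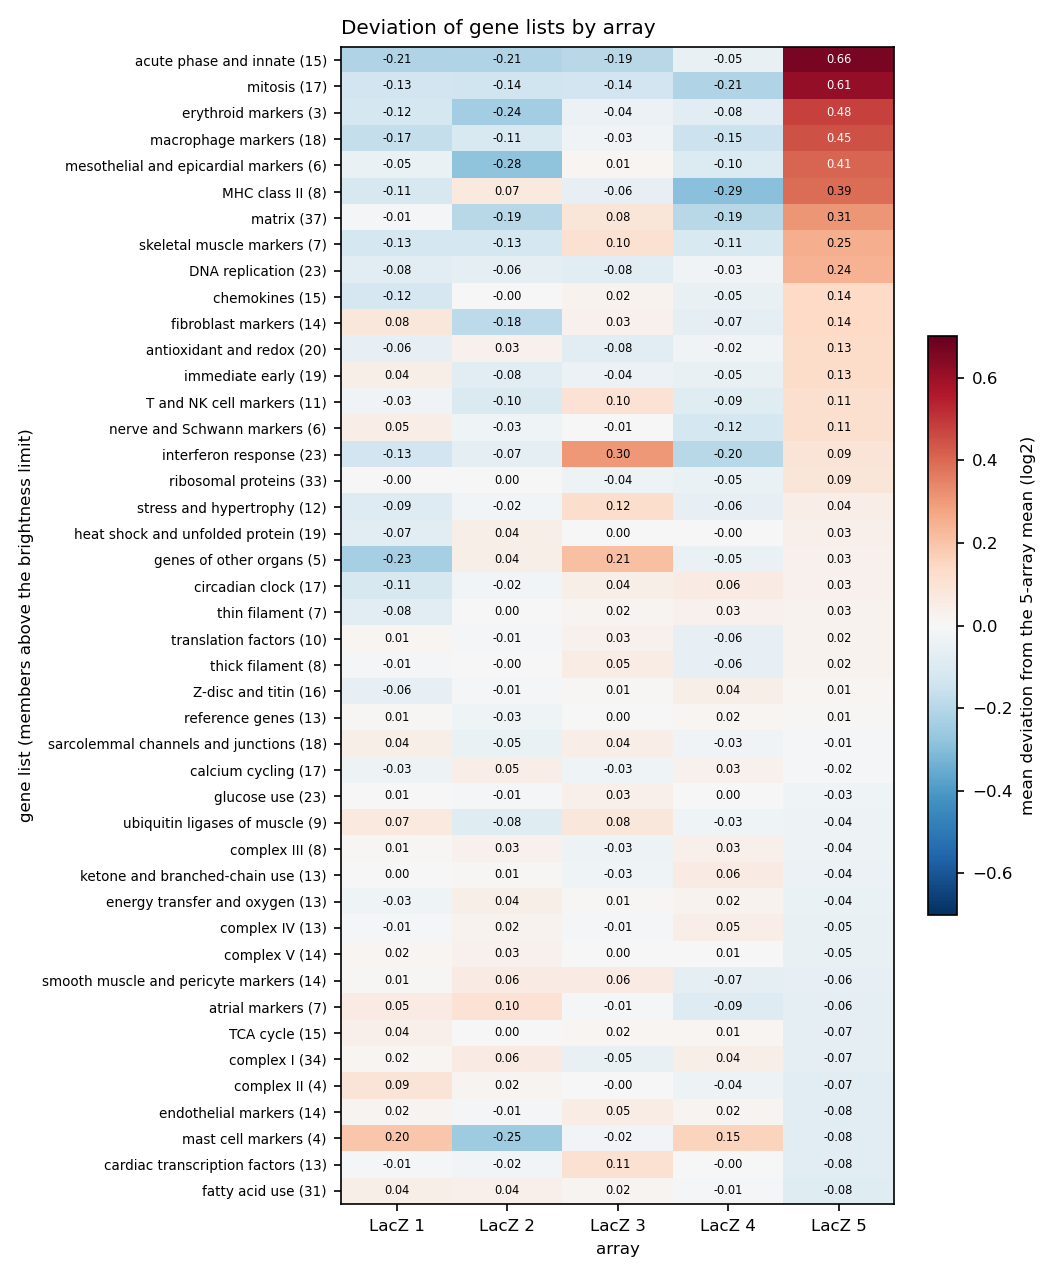
Mean deviation (log2) of the genes of each list from their own 5-array mean, by array, for lists with at least 3 genes above the brightness limit (number in brackets), ordered by LacZ 5; red is above and blue below the mean. LacZ 5 is at 0.66 for acute phase, 0.61 for mitosis and 0.45 for macrophage genes. For interferon response genes LacZ 3 is at 0.30 and LacZ 5 at 0.09.

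Chemokines had 15 of 20 genes above the limit (74.2% over all genes). The brightest was Cxcl12, the constitutive chemokine of stromal cells, at rank 645, and Cxcl11, an interferon-inducible attractant of T cells, was the other one in the brightest 10%, at 10.29, 10.55, 10.30, 10.59 and 10.72. Other inducible members were dimmer: Cxcl10, which binds the same receptor, read 6.48, 6.60, 7.11, 6.68 and 7.45, and Ccl7, an attractant of monocytes, read 6.17, 6.72, 6.78, 6.33 and 7.09. All 3 of Cxcl11, Cxcl10 and Ccl7 were highest on LacZ 5, as were 7 of the 15 in all. The share over all genes above the limit was 22.9%. Cxcl12, Cx3cl1 and Ccl3 were lowest on LacZ 5. The median SD of the 15 was 0.18 with LacZ 5 and 0.16 without it. S100a9, a calcium-binding protein of neutrophils and monocytes, read 6.07, 6.31, 4.29, 6.98 and 7.32 and was below the limit on LacZ 3 alone. The 7 measured neutrophil markers summed to 342 on LacZ 5, 273 on LacZ 4 and 115 to 171 on the others.

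Interferon response genes were mostly highest on LacZ 3 or LacZ 5. Of 23 above the limit, 11 were highest on LacZ 3 and 10 on LacZ 5 (18.1% and 22.9% over all genes above the limit). The mean deviation of the list was 0.30 on LacZ 3, 0.09 on LacZ 5 and -0.20 on LacZ 4. Mx2, described below, raised the mean of LacZ 3 and lowered that of LacZ 5. The median SD of the list, 0.24, was the same without LacZ 5. Irf7, the transcription factor that amplifies the interferon response, read 10.06, 10.69, 11.19, 9.51 and 11.23, a range of 3.29-fold. Mx1, an antiviral GTPase, read 7.81, 8.07, 8.93, 7.53 and 8.89. In both genes LacZ 3 and LacZ 5 were highest and LacZ 4 lowest. Ifi27, a small mitochondrial interferon-induced protein, was the brightest of the list at rank 149 and read 12.51 to 13.01.

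Mx2 did not follow them. Its brighter probe set read 8.92, 8.21, 9.72, 9.32 and 5.71, lowest on LacZ 5. The value there was below the brightness limit, and the mean of the others was at least 9.64-fold higher, taken against the limit. Its second probe set read 6.06, 7.72, 7.37, 5.99 and 7.61, highest on LacZ 2 and LacZ 5 and lowest on LacZ 4 and LacZ 1. The 2 probe sets therefore gave different orders of arrays, and the single value for the gene depends on which is used. What distinguishes them was not tested.

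The widest spread of all genes above the limit was found in class II genes of the major histocompatibility complex, which present peptides on antigen-presenting cells and differ much in sequence between rats. RT1-Bb, a beta chain, read 5.79, 11.20, 6.14, 5.76 and 10.03, so that it was bright on LacZ 2 and LacZ 5 and near the limit on the other 3. LacZ 4 was just below it, so the range was at least 42.9-fold, taken against the limit. RT1-Ba, the alpha chain of the same molecule, read 10.80, 5.90, 10.98, 10.66 and 10.13, a range of 33.8-fold, with LacZ 2 alone low. A second probe set of RT1-Ba read 7.51, 9.80, 7.77, 7.54 and 9.28, high on LacZ 2 and LacZ 5, as RT1-Bb was. A second probe set of RT1-Db1 read 6.35, 8.82, 6.70, 6.55 and 7.94, again highest on these 2 arrays, while its brighter probe set read 9.18 to 9.60 throughout. The second probe set of RT1-Bb had a mean of 5.29, below the limit, and gives no order of arrays. RT1-DMb, with 1 probe set, read 9.41, 10.20, 9.37, 9.11 and 9.78, also highest on LacZ 2 and LacZ 5, whereas RT1-DMa was lowest on LacZ 2, at 7.47. RT1-Da, another alpha chain, read 11.51, 11.47, 11.61, 11.04 and 11.43, and Cd74, the invariant chain that chaperones all class II molecules, read 12.39 to 12.59. The 2 brightest probe sets of RT1-Ba thus disagreed in direction, so the gene cannot be given a single level by array, and RT1-Bb rests on 1 probe set. These patterns did not rest on LacZ 5: without it the SD was 2.66 for RT1-Bb and 2.46 for RT1-Ba.

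**Figure D5:**
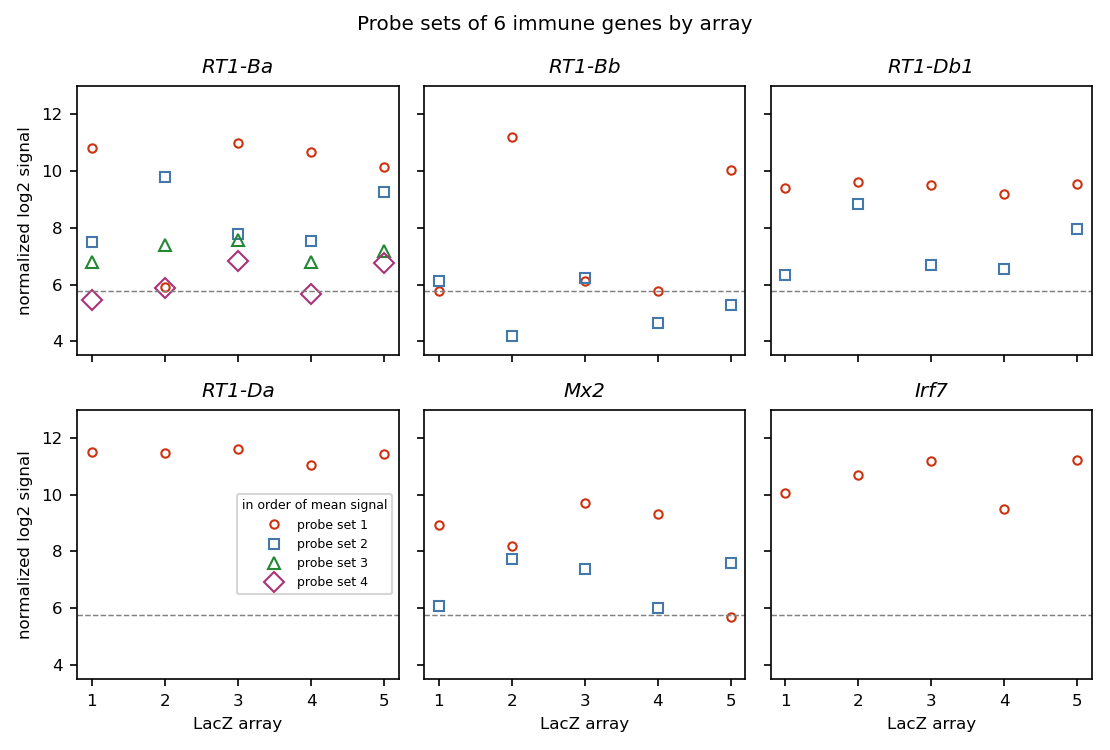
Normalized log2 signal of every probe set of RT1-Ba, RT1-Bb, RT1-Db1, RT1-Da, Mx2 and Irf7 on LacZ 1 to LacZ 5 (x axis), numbered in order of mean signal; the dashed line is the brightness limit. Probe set 1 of RT1-Ba is low on LacZ 2 alone, where its probe set 2 and probe set 1 of RT1-Bb are highest, and the 2 probe sets of Mx2 differ in their order of arrays.

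The upstream sequences of the class II chains are shown because the chains of one molecule are known to be switched on together through shared promoter boxes, while the probe sets above disagreed. Each is the 150 bases before the annotated start in RefSeq's GRCr8 annotation, on the gene's strand from 5′ to 3′. Capitals mark the Y box of class II promoters, searched as CTGATTGG on both strands of the 250 bases upstream. It was found in 886 of 27457 promoters (3.23%) and in 4 of the 6 class II list genes with a promoter, RT1-Ba, RT1-Bb, RT1-Da and RT1-Db1. The regions are chr20:4604119-4604268 on the minus strand for RT1-Bb, chr20:4576907-4577056 on the plus strand for RT1-Ba and chr20:4515265-4515414 on the plus strand for RT1-Da.
RT1-Bb: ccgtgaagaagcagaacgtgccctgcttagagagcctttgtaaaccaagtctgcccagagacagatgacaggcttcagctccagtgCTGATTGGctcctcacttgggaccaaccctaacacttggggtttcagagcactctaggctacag
RT1-Ba: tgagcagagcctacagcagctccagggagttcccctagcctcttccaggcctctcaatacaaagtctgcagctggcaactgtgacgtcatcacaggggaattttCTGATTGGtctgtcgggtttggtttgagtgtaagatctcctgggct
RT1-Da: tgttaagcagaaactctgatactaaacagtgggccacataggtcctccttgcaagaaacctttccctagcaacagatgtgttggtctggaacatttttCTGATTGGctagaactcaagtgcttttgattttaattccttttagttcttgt
The box began 64, 46 and 52 bases before the start in RT1-Bb, RT1-Ba and RT1-Da. Whether the box bears on the signals of these genes was not tested. A match is a description of the letters and not of a bound site.

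The same was done for interferon and mitosis genes, whose lists had their highest mean deviations on LacZ 3 and on LacZ 5. The interferon-stimulated response element was searched as GAAA, any 2 bases and GAAA again, on both strands, and CCAAT, bound by the factor NF-Y in cell cycle promoters, likewise. Y boxes of the form above end in ATTGG and hence also match CCAAT on the other strand. The first was found in 912 of 27457 promoters (3.32%) and in 12 of 19 interferon response genes with a promoter (63.2%). CCAAT was found in 34.2% of all promoters, in 18 of 23 mitosis genes (78.3%) and in 13 of 23 DNA replication genes (56.5%), and in 30 of 80 promoters of the 100 brightest genes (37.5%). Irf7 at chr1:205800024-205800173 (minus strand) and Cdk1 at chr20:19265143-19265292 (plus strand) serve as examples, with matches on either strand in capitals.
Irf7: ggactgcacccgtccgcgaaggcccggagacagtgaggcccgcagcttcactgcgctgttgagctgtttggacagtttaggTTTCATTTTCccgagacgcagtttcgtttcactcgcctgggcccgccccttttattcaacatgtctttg
Cdk1: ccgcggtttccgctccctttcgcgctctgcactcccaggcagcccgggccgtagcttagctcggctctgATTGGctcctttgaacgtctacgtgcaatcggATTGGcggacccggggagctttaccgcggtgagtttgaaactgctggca
Irf7 held 1 match, 69 bases before the start, and Cdk1 held 2. TATAAA, the core of the TATA box, was found in 7 of the 80 promoters of the brightest genes (8.75%) and in 13.1% of all promoters. Among the thin filament genes with a promoter, Acta1 alone held it.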

How the data were processed

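RNA of rat left ventricle was measured on Affymetrix Rat 230 2.0 arrays, on which a probe set is a group of short probes for a transcript. The deposited table holds the intensity (signal) of each probe set on a linear scale, made with GCOS 1.2, per the submitters' processing notes (given for 4 of the 5 LacZ samples). No source used here states how the arrays were scaled. Median deposited signals lay between 61.3 and 76.7 on the 5 arrays.

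Quantile normalization over all probe sets of the 5 arrays was followed by log2(signal + 16), so log2 values here were computed from the deposited intensities and understate differences of dim genes. Gene symbols came from the platform annotation and were updated through RefSeq's GRCr8 gene table (20758 of 20826 probe sets matched, and 68 kept the annotation's symbol). A further 436 probe sets with several symbols and 9780 with none were left out, as were 57 controls. Each gene was represented by its probe set of highest mean. The spread is the SD or the range over 5 arrays, whose number limits the precision. No test was made, since there is 1 group, and a correlation is over genes and a description only. The members and gene lists were chosen with earlier results of these data known.

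Genes were named by rule: the 30 highest means, the 25 largest SDs above the brightness limit and 15 without LacZ 5, the 15 smallest SDs in the brightest 10%, pairs of related forms, the 4 brightest and the 3 widest of each of 48 lists, and all members of some lists. Members named outside it, as exceptions to a count, were chosen after their values were seen. Alternatives covered scaling, the offset, the brightness limit, the choice of probe set, the fluidics module and status, and each array left out. The calculation of spread was tested on simulated data. Python 3.11.15, numpy 2.4.6 and pandas 2.3.3 were used.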

Additional observations from a re-analysis of the deposited data

Results flagged for a closer look

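For 18 of the 163 genes named above and for 6 of 44 gene lists, the value of 1 array lay far from the other 4 (its gap to the nearest other array was over 0.71 of the whole range, for genes above the brightness limit). Chance gives this in about 1 in 20 groups, and over all genes above the limit it was found in 637 (6.04%). The array was LacZ 5 for 11 of the 18 genes and 5 of the 6 lists, but some of these genes were named for their wide spread. Over the 637 genes it was LacZ 5 for 165, LacZ 3 for 167, LacZ 1 for 119, LacZ 4 for 115 and LacZ 2 for 71, so that LacZ 5 did not stand out in the number of such genes. On LacZ 5 the normalized log2 signals were 11.06 for Lcn2, 11.18 for Timp1, 8.18 for Reg3g, 9.87 for Alas2, 10.85 for Ccn2, 7.64 for Cdk1, 7.26 for Top2a, 7.55 for Fos and 10.08 for Casq1, all above the other arrays, and 12.98 for Cox8b, an oxidase subunit, and 13.25 for Hspb6 below them. The lists on LacZ 5 were the acute phase and innate genes, with a mean deviation of 0.66, mitosis (0.61), erythroid markers (0.48), macrophage markers (0.45) and DNA replication (0.24).

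RT1-Ba was low on LacZ 2 (5.90), as shown above together with its other probe sets. Acta1 was low on LacZ 1 (12.97), and the thin filament list, of which it is a member, deviated there by -0.0756. Atp2a2 was at 13.93 and Idh2 at 13.77 on LacZ 3, differences that are very small in size and that arise among the brightest ranks, where normalization fixes the values. Ryr2 was at 13.14 on LacZ 4 and, on LacZ 2, Cox4i2 was at 7.38 and Syp at 6.92.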

How the results depend on the processing

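No paired analysis was possible because a single group was described and no test was made. Agreement between arrays in the order of genes depended little on the processing, and the order itself was not compared between settings. Scaling and the offset keep the order of probe sets within an array, so the shared genes and the correlation could hardly move with them. With the mean of all probe sets of a gene, which can reorder genes, 84 genes were shared by the 100 brightest. The count of genes above the limit on all 5 arrays and the number shared by the 100 brightest of every array stayed within 1.5 times of 9944 and 87 under every alternative run, and ranged from 9990 to 10023 and from 87 to 90 with 1 array left out. The lowest rank correlation, 0.983, was 0.978 with the dimmest 60% left out and 0.978 with the mean of all probe sets of a gene, and it ranged from 0.982 to 0.985 with 1 array left out. It was 0.985 with arrays of completed fluidics status only, which leaves out LacZ 5. The spread depended more on the settings. The median SD of 0.14 became 0.20 as deposited, 0.16 with median centring, 0.12 with an offset of 64, 0.16 with the dimmest 20% left out, 0.12 with the dimmest 60% left out and 0.11 as a scaled median absolute deviation. It was 0.11 within fluidics module 1, which holds 2 arrays, and ranged from 0.133 to 0.141 with 1 array left out. The 355 genes spanning over 2-fold became 636 with an offset of 1, 110 with an offset of 64, 1151 with the dimmest 20% left out, 120 with the dimmest 60% left out and 115 within fluidics module 1. They ranged from 182 to 294 with 1 array left out, and 182 was the number without LacZ 5 (also that of completed status only). As deposited, LacZ 3 lay -0.20 and LacZ 5 0.13 from the mean of the arrays (median over genes). Deviations of lists by array were recomputed only where they were at least 0.20 in size, and none of the 152 recomputed values changed sign. Smaller deviations, such as that of complex I on LacZ 5, were not recomputed. Of the lists, 32 of 432 median percentiles and 154 of 396 median spreads moved by more than their spread over arrays or over left-out arrays. Dim genes are limited by signal over background: the fraction spanning over 2-fold was 16.5% in the dimmest bin and 0.379% in the brightest.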
